A study of Mus musculus with 7 samples.

Results

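The signal described here is that of 6 places in the mouse genome where exonuclease stops of CTCF ChIP-exo 5.0 pile up. They were chosen by their tag counts, which are among the highest in every library, and take in every peak whose centre lies, on mm10, in chr9:3000001-3040000 (called chr9 start), chr2:98660001-98670000 (chr2), chr14:19410001-19420000 (chr14), chr9:35300001-35310000 (chr9 inner), chrUn_JH584304:50001-120000 (JH584304) or chrUn_GL456392:20001-30000 (GL456392). Over the 7 libraries of the series they hold 28514 of 2603994 peaks, or 1.10%. A peak is strand-specific and, in the places, always 21 bp wide. A tag is a read whose start marks where the exonuclease stopped, and the lowest count listed is 2 tags.

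CTCF is a zinc finger protein that binds a long DNA motif at insulators and at the borders of chromatin domains. Satellite DNA consists of tandem copies of a short unit. In the mouse, major satellite arrays surround the centromeres, which lie at 1 end of each chromosome, and most of this DNA is missing from the assembled genome. Reads from the many unassembled copies can be placed only on the few copies that the assembly does hold, so such stretches often stand out in ChIP data whatever the antibody.

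All libraries came from wildtype mice and were prepared with the same CTCF antibody lot. Brain, lung, kidney and liver were each represented by 1 library, made from 100 mg of tissue of adult mice aged 16 weeks. A titration of liver cells added 3 libraries, of 2,700,000, 270,000 and 27,000 cells. The study's methods estimated liver cell numbers from the wet weight of tissue, so these numbers stand for amounts of liver. The organ library of liver is called liver tissue here and those of the titration liver cells. No difference between conditions therefore has a replicate check. No untreated, input or mock library was analysed here, and the extraction protocol in the labels names IgG where the antibody field names CTCF. The labels give 0.3% formaldehyde and the study's methods 1%. The organ and titration libraries carry library numbers from different ranges, so input and preparation cannot be told apart between the sets. Both sets include liver. For brain, lung and kidney, tissue differs from the titration as well. Listed tags ran from 35594 in the library of 27,000 cells to 6592538 in that of 2,700,000 cells.

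Peak spacing, a description here, set 2 of the 6 places apart from the other 4. In a search added after the data were seen, peaks recurred at a period of 234 bp at chr9 start and JH584304. The 7 libraries map to the same stretches of sequence, so their agreement is no independent support for the name satellite-like. No period was common to the libraries in the other 4. These 4 are therefore called by their position. They hold signal over only 1 to 5 blocks of 1 kb, and the part of this short length in the result was not tested. The major satellite of the mouse is known for a unit of 234 bp. No sequence of the places was compared with it here.

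The RefSeq genes of GRCm38.p6, the assembly that mm10 stands for, are few at these places. Chr9 start overlaps 1 gene, Mir101c, from 3038669 to 3038743, and none of the 7 libraries listed a peak in it. Its mature sequence is the one RefSeq sequence to hand from inside a place, and it marks the end of the signal, since the last peak of any library lay 266 bp before it. It is given 5′ to 3′ from chr9:3038680-3038698 on the reverse strand, with the seed, bases 2 to 8, in capitals.
mmu-miR-101c: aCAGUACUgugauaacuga

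Chr9 inner overlaps Gm33838, a long noncoding RNA gene annotated from 35285514 to 35307723, and all its peaks lie within that gene. The other placed windows lie between genes, chr2 between the pseudogene Gm13806 and the long noncoding RNA gene Gm33780, 58544 bp and 32599 bp away, and chr14 between the pseudogene Gm9637 and the long noncoding RNA gene Gm41101, 4909 bp and 64876 bp away. Whether the signal lies in an exon or an intron of Gm33838 was not determined.

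In brain, lung, kidney and liver the 6 places took 8.89%, 5.22%, 10.8% and 22.6% of all listed tags. They took 7.46%, 21.4% and 35.3% in the libraries of 2,700,000, 270,000 and 27,000 liver cells. The 95% Wilson intervals, which cover counting error only, are at most 1 percentage point wide, from 5.17% to 5.27% in lung and from 34.8% to 35.8% in the library of 27,000 cells. Liver tissue lay close to the library of 270,000 liver cells here, but with peaks of at least 5 tags only, the shares of these libraries were 85.2% and 47.4%. Per 1000 cells of the estimated input, the places gave 182, 508 and 465 tags in descending order of cell number. The rest of the genome gave 2259, 1865 and 853. These values chose the places and are a description.

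Of the 100 peaks with most tags, 73 to 95 lay in the places, depending on the library. The single highest peak of every library was at chr2, with 1496, 444, 2308 and 2117 tags in brain, lung, kidney and liver, and 3500, 1531 and 227 in the titration, always given here in descending order of cell number. The highest peak outside the places held 71 to 1377 tags. Little signal lay beyond the placed windows, though whether reads can be mapped there was not examined. In the 10 kb beyond a window, each library listed at most 15 tags around the 4 placed windows. Before the windows of the unplaced sequences there were up to 1279 tags at JH584304 and up to 596 at GL456392.

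Most of the signal was at 3 places. Chr9 start held 33.6% to 39.0% of the tags of the 6 places, JH584304 held 29.9% to 34.9% and chr2 held 17.0% to 26.4%. Chr14 held 4.42% to 5.37%, chr9 inner 1.91% to 2.53% and GL456392 0.964% to 1.75%. The order of the 6 places by tags was the same in every library.

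At chr9 start the share of all tags in brain, lung, kidney and liver was 3.18%, 1.96%, 4.05% and 7.59%, and in the titration 2.91%, 8.13% and 13.4%. JH584304, a sequence not assigned to a chromosome, followed it closely, with 2.84%, 1.75%, 3.64%, 6.91%, 2.61%, 7.11% and 10.5% in the same order. The ratio of tags at chr9 start to those at JH584304 lay between 1.10 and 1.14 in 6 libraries and was 1.27 in the library of 27,000 cells. By contrast, the ratio of chr2 to chr9 start ranged from 0.436 in 2,700,000 liver cells to 0.785 in liver tissue. At the depth of each library, lung had the lowest share and the library of 27,000 cells the highest at each of the 6 places. With every library thinned to the depth of that of 27,000 cells, the computed share of the 6 places together was 54.4% in liver tissue and 45.4% in 270,000 liver cells against 35.3%, and lung stayed lowest with 7.96%.

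**Figure D1:**
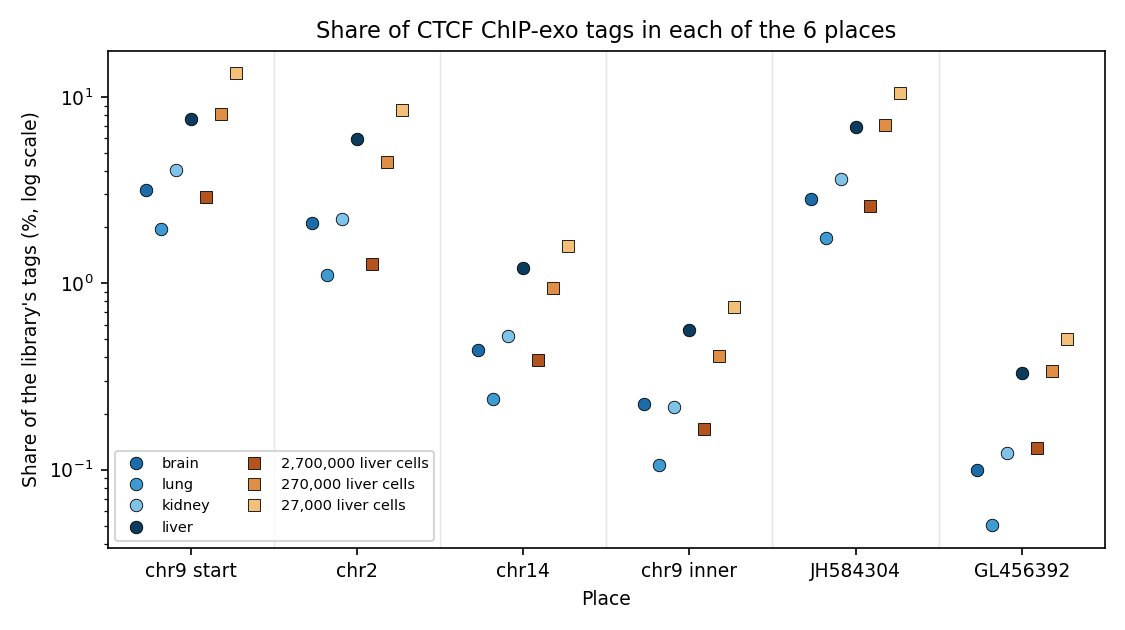
Share of each library's tags in each place (percent, log scale). Circles are organ libraries and squares liver cell libraries, 1 point a library. Lung is lowest and 27,000 liver cells highest at every place, and chr9 start and JH584304 move together.

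Tags filled the places to very different extents. Chr9 start held at least 20 tags in every library in each of 39 blocks of 1 kb, from the first base of the window to the block with the last peak, and JH584304 in 47 blocks. The count was 5 blocks at chr2, 5 at chr14, 2 at GL456392 and 1 at chr9 inner. Over these blocks the density was highest at chr2, with a median over libraries of 0.443% of all tags per kb (range 0.222% to 1.70%), followed by chr9 inner with 0.225% (0.106% to 0.745%). Chr14 and chr9 start had medians of 0.105% and 0.104%, JH584304 0.0768% and GL456392 0.0615%. The density at chr2 was 3.38 to 6.08 times that at chr9 start and was the highest of the 6 in every library. Chr14 and chr9 start changed places between libraries, chr14 being the denser in 4 of 7.

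At chr9 start the densest block was the first, which held 6.95% to 8.45% of the tags of the place. At JH584304 the block from 103001 to 104000 held 3.76% to 5.12%. Most tags at chr2 fell in 3 blocks. The block from 98666001 to 98667000 held 34.8% to 43.7%, the next one, to 98668000, 25.8% to 35.2%, and the block from 98662001 to 98663000 20.3% to 26.6%. At chr14 the block from 19417001 to 19418000 held 30.3% to 35.5%, and at GL456392 the block from 22001 to 23000 held 60.8% to 74.2%. At chr9 inner a single block, from 35305001 to 35306000, held 99.7% to 100% of the tags.

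Outside the places, forward and reverse tags were even, with 49.2% to 50.1% of tags on the forward strand in the 7 libraries. Within the places they often were not. At chr9 start, JH584304 and chr9 inner the side in excess differed between organ and titration libraries, though not every interval there excluded 50%. At chr9 start the forward share in brain, lung, kidney and liver was 43.1%, 42.6%, 41.4% and 39.9%, but 54.5%, 53.6% and 53.5% in the libraries of 2,700,000, 270,000 and 27,000 liver cells. The 4 organs thus lay below 50% and the 3 titration libraries above it, without overlap. Liver tissue lay with the other organs and not with the titration of liver. The interval of the share in liver tissue was 39.4% to 40.4%, and in 2,700,000 liver cells 54.3% to 54.7%.

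JH584304 showed the same order. Its forward share was 44.0%, 42.4%, 42.6% and 41.9% in brain, lung, kidney and liver, and 54.0%, 52.0% and 51.1% in the titration. GL456392 was also lower in the organs, with 39.4%, 37.4%, 43.8% and 38.9%, against 51.3%, 47.0% and 57.3% in the titration, the last from 178 tags with an interval that reaches from just under 50% to 64.3%.

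By tags, the opposite order held at chr14 and chr9 inner. At chr14 the forward share was 58.8%, 58.3%, 55.7% and 59.3% in brain, lung, kidney and liver, and 44.6%, 48.1% and 50.1% in the titration. At chr9 inner it was 54.3%, 57.4%, 51.3% and 54.6% in the organs and 41.2%, 47.0% and 46.8% in the titration. Chr2 alone overlapped, with 54.9%, 49.2%, 56.2% and 54.0% in the organs and 51.9%, 48.3% and 49.6% in the titration.

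The mean of the titration minus that of the organs was 12.1 percentage points at chr9 start, 9.66 at JH584304 and 12.0 at GL456392, and −10.5 at chr14, −9.37 at chr9 inner and −3.61 at chr2. In the rest of the libraries it was −0.269. This grouping was compared after its values were seen. With 4 against 3 libraries an exact permutation test cannot give a p below 0.0571, the two-sided value of the 5 places without overlap, and chr2 gave p = 0.171 in the same exact test.

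The contrast was smaller by number of peaks than by tags. With peaks counted in place of tags, the titration minus the organs fell to 1.98 percentage points at chr9 start and 3.01 at JH584304, where the libraries still did not overlap. At GL456392, chr2, chr14 and chr9 inner they then overlapped, with differences of 3.73, −1.43, 0.593 and 0.146, so that the order at chr14 and chr9 inner was lost. With peaks of at least 5 tags, or without the strongest position of each place, the 5 places kept their direction and their lack of overlap.

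**Figure D2:**
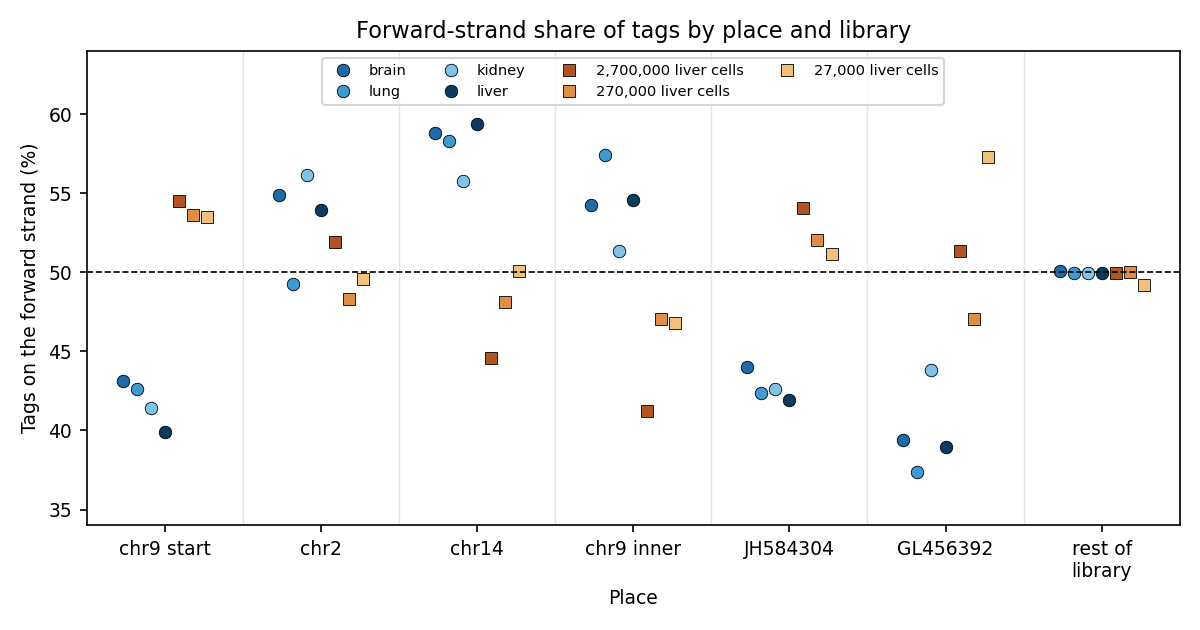
Percent of tags on the forward strand in each place and in the rest of each library, with a dashed line at 50%. Circles are the 4 organ libraries and squares the 3 liver cell libraries. By tags, organs lie below liver cells at chr9 start, JH584304 and GL456392 and above them at chr14 and chr9 inner, while the rest of the libraries stays between 49.2% and 50.1%.

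The strand difference was found in most blocks of the long arrays. Of 39 blocks of 1 kb at chr9 start, all 4 organs lay below all 3 titration libraries in 35, and of 47 blocks at JH584304 in 34. No block of either place had the organs above the titration. Over all 108 blocks of the genome with at least 20 tags in every library, 67.6% had the organs below and 8.33% above, but 99 of the 108 are those of the 6 places. The other 9 blocks had the organs below in 2 and above in 3. The last block of chr9 start, which ends at 3039000, departed from the rest of the array, since its forward share was low in both sets of libraries, at most 40.8% in the organs and at most 29.5% in the titration.

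Among the shorter places, chr2 alone held both blocks with the organs above the titration and blocks with them below. At chr2 the block from 98666001 to 98667000 had 63.3% to 69.0% forward tags in the organs and 56.9% to 59.9% in the titration, whereas the neighbouring block to 98668000 had 39.2% to 51.7% and 33.9% to 41.3%. The block from 98663001 to 98664000, with at most 2.28% of the tags of chr2, had the organs lower, with 30.4% to 44.1% against 48.8% to 67.6%. At chr14, 3 of 5 blocks had the organs above the titration and none had them below.

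**Figure D3:**
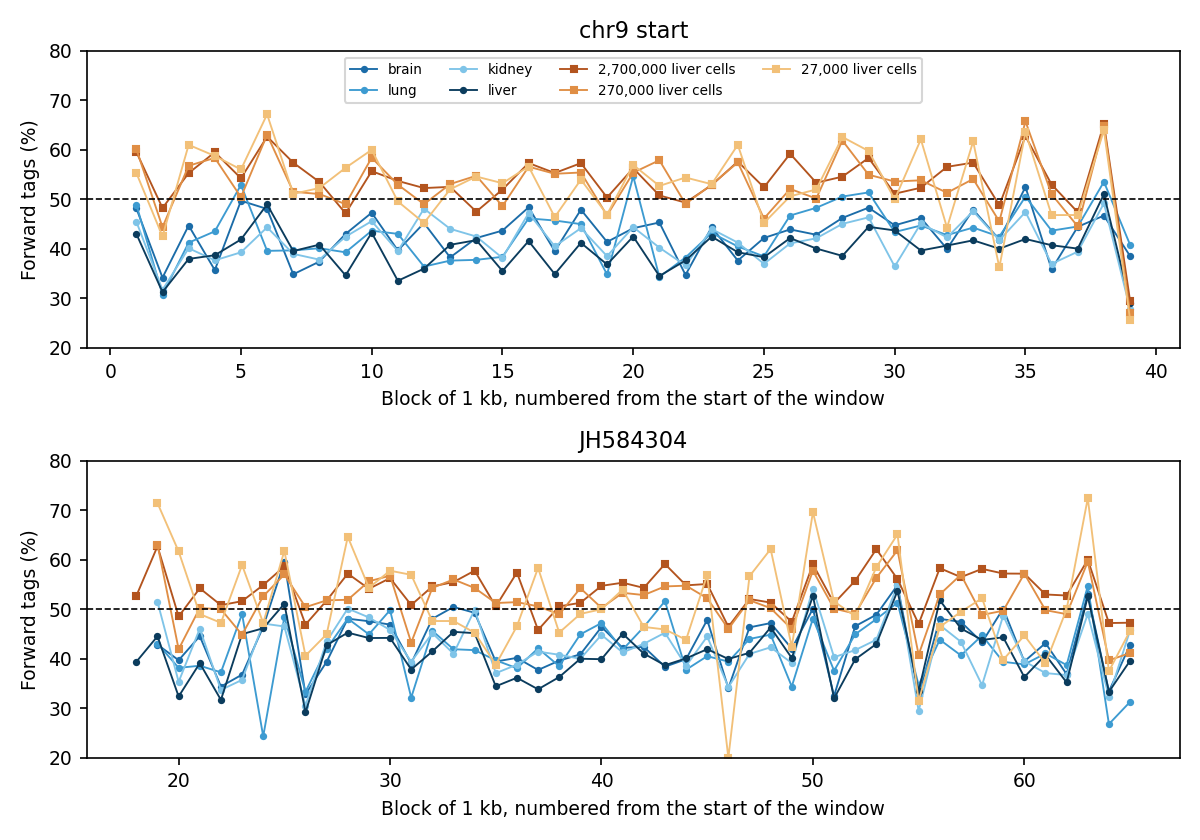
Percent of tags on the forward strand in each block of 1 kb (at least 20 tags in the library) along chr9 start and JH584304, blocks counted from the start of the window. Each line is 1 library, with organs in blue and liver cells in orange. The organs run below the liver cells along most of both arrays, in all 4 against all 3 libraries in 35 of 39 and 34 of 47 blocks, and the lines meet in the last block of chr9 start.

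The 6 places were compared with each other by the paired differences over the 7 libraries, with an exact sign-flip permutation test whose smallest two-sided p is 0.0156 and with adjustment over 30 tests. For the forward share, 1 of 15 pairs of places passed 0.05. Chr14 exceeded chr9 inner by 3.20 ± 1.60 percentage points (SD, n = 7), in 7 of 7 libraries (adjusted p = 0.0469 by the exact permutation test). This depended on the strongest positions, since without the strongest position of each place the difference was −6.41 percentage points (adjusted p = 0.0469, same exact test). It also did not pass with peaks counted in place of tags (adjusted p = 0.402, exact permutation test), nor when any 1 of the 7 libraries was left out, where the smallest p the test can give is 0.0312. In 12 of the 15 pairs the mean difference had opposite signs in the organs and in the titration. The forward share of chr9 start minus that of chr14 averaged 6.26 percentage points in the titration and −16.3 in the organs. Chr9 start and JH584304 were close, with a difference of 0.0755 ± 1.56 percentage points (SD, n = 7).

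At chr9 start, levels along the place were more alike between libraries of 1 kind than between the kinds. Over windows of 100 bp on either strand, Spearman's rho of tags at chr9 start was 0.852 to 0.921 between organs, 0.817 to 0.891 between titration libraries and 0.674 to 0.787 between an organ and a titration library. These are correlations across 769 windows that share the same stretch of sequence and are a description. Liver tissue had a rho of 0.907 with brain and 0.787 with 2,700,000 liver cells. The library of 27,000 cells, with 12555 tags in the places, had the lowest rho with liver tissue, 0.674. At JH584304, with 1276 windows, rho was 0.864 to 0.929 between organs, 0.766 to 0.940 within the titration and 0.703 to 0.871 between the kinds. At chr2, with 63 windows, it was at least 0.898 for every pair of libraries. The other places did not follow chr9 start in full. The median rho was 0.842 between the kinds and 0.794 within the titration at JH584304, 0.814 and 0.777 at GL456392, and 0.959 and 0.905 at chr9 inner. At chr14 these medians were 0.810 and 0.821, and at chr2 0.925 and 0.928. Between organs the median was higher than both at every place.

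Peaks within the places often had the same centre and strand in another library. This held for 31.7%, 28.5%, 33.0% and 30.6% of the peaks of the places in brain, lung, kidney and liver, and for 27.6%, 29.1% and 26.2% in the titration. Over all peaks the shares were 2.02%, 3.58%, 0.999%, 1.8%, 0.759%, 3.23% and 7.21% in the same order. The peaks of a place stand close together, with centres at 1.04% to 2.28% of all strand positions of the 99 blocks in each library. Between any 2 libraries a median of 6.59% of the peaks of the places had the same centre (range 2.41% to 11.8% over 42 ordered pairs), and 49.7% had one within 5 bp. For the peaks outside the places these medians were 0.197% and 1.63%. The part of crowding in these shares was not tested.

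With shifts of 5 bp allowed, every library listed tags at 11 of the 12 positions named here, 2 in each place with the highest mean tag share at their exact centre. The exception lies at GL456392. At chr2 the forward peak from 98667112 to 98667132 held 6.85%, 5.76%, 6.34% and 6.74% of the tags of the place in brain, lung, kidney and liver, and 3.25%, 5.18% and 7.49% in the titration. The forward peak from 98666570 to 98666590 held 2.30% to 3.94%.

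At chr9 inner, 2 positions on opposite strands stood out. The forward peak from 35305423 to 35305443 held 10.7% to 17.4% of the tags of the place, and the reverse peak from 35305463 to 35305483 held 12.4% to 18.1%. In kidney, where both were listed at these exact positions, they had 531 and 562 tags. Their centres are 40 bp apart.

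Some named positions differed between the kinds of library in their tags within 5 bp. They were chosen by tags at their exact centre, which not every library listed, so these differences are a description. The first below was chosen through 2,700,000 and 270,000 liver cells alone, the only libraries to list its exact centre. At GL456392 the reverse peak from 22844 to 22864 held 5.66%, 7.30% and 4.49% of the tags of the place in the titration, but 0.966% in brain, 0.992% in kidney, 1.21% in liver and none listed in lung. At chr9 start the reverse peak from 3001514 to 3001534 held 0.540% to 0.745% in the organs and 0.210% to 0.245% in the titration, and the forward peak from 3025532 to 3025552 held 0.280% to 0.298% in the organs and 0.441% to 0.965% in the titration. At chr14 the reverse peak from 19418870 to 19418890 held 2.54% to 3.89% and the forward peak from 19415718 to 19415738 1.54% to 5.73%. The named positions at JH584304, both forward, held at most 0.427% each, and the highest single peak of that place held 0.445% to 0.934% depending on the library.

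Spacing set chr9 start and JH584304 apart from the other places. A repeat unit was taken as the period, from 100 to 350 bp, whose first 4 multiples held most pairs of peaks on the same strand. At chr9 start this was 234 bp in 6 libraries and 233 bp in that of 27,000 cells, and at JH584304 it was 234 bp in 5 libraries and 233 bp in 2, those of 2,700,000 and 27,000 cells. Pooled over libraries, the distances with most pairs near each multiple were 233, 468, 702, 936, 1168 and 1405 bp at chr9 start and 233, 468, 702, 934, 1169 and 1403 bp at JH584304. Pairs there were 1.18 to 1.38 and 1.23 to 1.35 times as frequent as at the median distance. These are the highest values near each multiple. At chr9 start a distance of 175 bp, not a multiple, also reached 1.26. The search for a repeat unit was added after the data were seen. The distance with most pairs between 100 and 500 bp, which was the planned measure, varied among 174, 232, 233, 409, 426, 468 and 469 bp over the 7 libraries at chr9 start, so that it fell on 1 or 2 units in 4 of them.

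The other places had no unit common to the libraries. At chr2 the best period ran from 100 to 147 bp over the libraries, at chr14 from 111 to 253 bp, at chr9 inner from 108 to 139 bp and at GL456392 from 106 to 164 bp. Pooled over libraries it was 118 bp at chr2 and at chr14, 138 bp at chr9 inner and 120 bp at GL456392. With peaks weighted by the square root of tags it was 125, 118, 138 and 106 bp at chr2, chr14, chr9 inner and GL456392. At chr2 the distance with most pairs was steady, between 111 and 126 bp in all 7 libraries, with up to 3.43 times the pairs at the median distance. The period of 234 bp had a rank of 1 to 3 among 251 periods at JH584304 and of 1 or 2 at chr9 start, and no better than 28 in any library at the other 4 places. These 4 hold signal over only 1 to 5 blocks of 1 kb, and the part of this short length in the ranks was not tested.

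**Figure D4:**
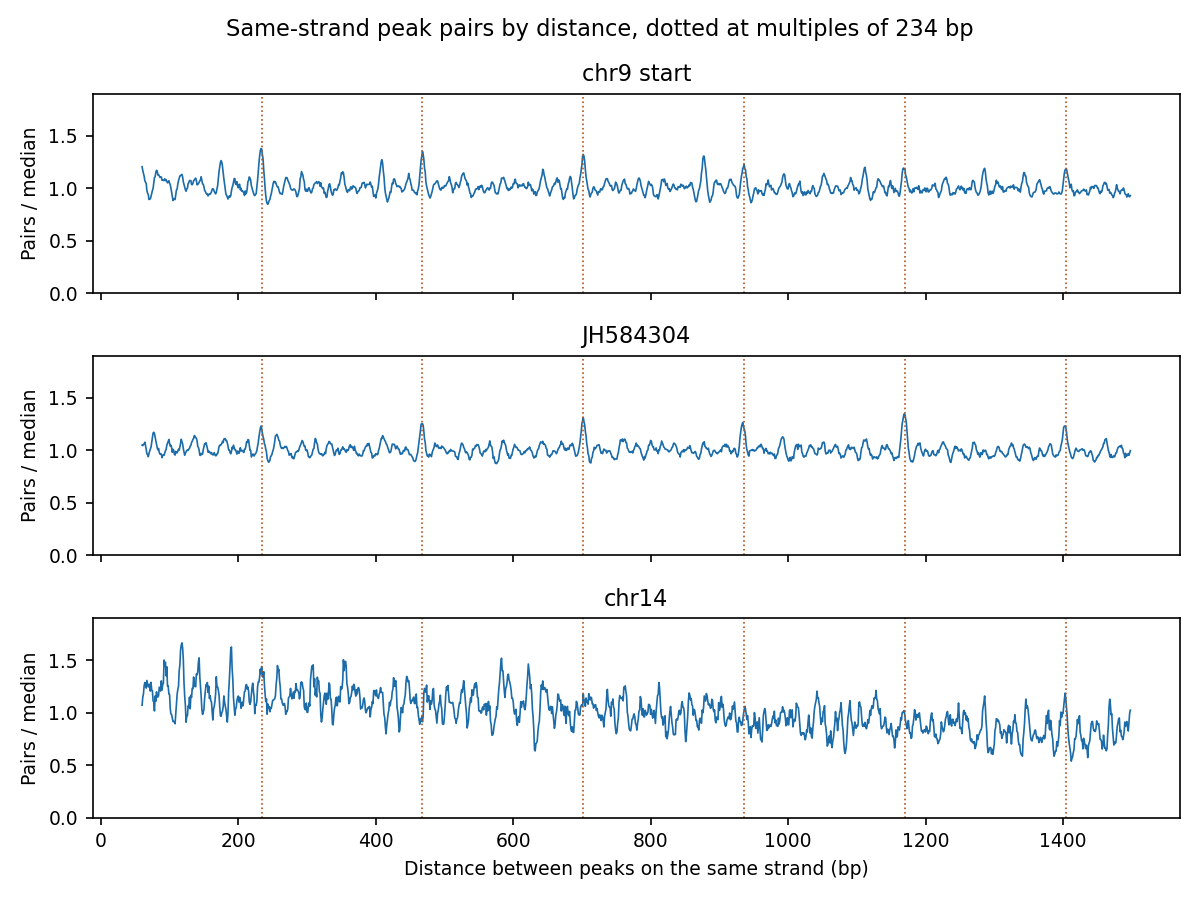
Number of same-strand peak pairs at each distance (bp), summed over 5 bp, pooled over the 7 libraries and divided by the median over distances, at chr9 start, JH584304 and chr14. Dotted lines mark multiples of 234 bp. Near each multiple the highest value in both long arrays was 1.18 to 1.38 times the median. Chr9 start also reached 1.26 at 175 bp, which is not a multiple. Chr14 had no period common to the libraries.

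Forward and reverse peaks were also spaced. In the places, the distance from a forward peak to a reverse peak that held most pairs was 40, 39, 38 and 39 bp in brain, lung, kidney and liver, and 35, 37 and 34 bp in the titration, with 1.66 to 2.65 times the pairs at the median distance. In the rest of the libraries it was 40 bp in kidney, liver and the library of 270,000 cells, and 10, 12, 134 and 31 bp in brain, lung and the libraries of 2,700,000 and 27,000 cells. The distance of 31 bp rests on 6 pairs. At 39 bp the rest still held 2.12, 1.87 and 1.71 times the pairs at the median distance in brain, lung and 2,700,000 cells. The places held 2.45, 2.45 and 1.74 times these pairs there. In 27,000 cells the rest held only 1 pair near 39 bp. The sequenced reads were 40 bp long, a length near the distances in the places. The part of read length in them was not tested.

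Tags were broadly spread within the peaks of the places. Each deposited peak carries the standard deviation of its tag positions, which would be 6.06 bp for tags spread evenly over 21 positions and is 0 where all tags fall on 1 position. Weighted by tags, it averaged 4.18 to 5.25 bp at chr9 start over the 7 libraries, 4.96 to 5.52 bp at chr2, 3.94 to 5.21 bp at chr14, 4.40 to 5.55 bp at chr9 inner, 3.91 to 5.18 bp at JH584304 and 3.42 to 5.25 bp at GL456392. In the rest of the genome it was 3.39 bp in the library of 2,700,000 cells and between 0.184 and 0.882 bp in the other 6.

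Peaks with all tags on 1 position were rare in the places. They made up 0.322% to 2.93% of peaks at chr9 start, 0% to 1.63% at chr2, 0.883% to 5.39% at JH584304 and at most 9.52% at any place. Over all peaks they made up 83.2%, 83.1%, 91.5% and 76.3% in brain, lung, kidney and liver, and 33.1%, 76% and 72.8% in the titration. At matched low tag counts the contrast remained in 5 libraries. Of peaks with 5 to 9 tags, 0.195% in the places and 77.2% in the rest had a single position in brain, 2.63% and 92.3% in lung, and 1.20% and 94.1% in kidney. The values were 0.198% and 78.2% in 270,000 liver cells and 0% and 97.5% in 27,000 liver cells. Liver tissue with 0% and 7.83%, and 2,700,000 liver cells with 0.414% and 0.825%, differed less. At 10 to 19 tags the rest had a single position in 78.8% of peaks in lung, 50.4% in kidney, 52.9% of only 17 peaks in 27,000 cells, 8.03% in brain and 6.10% in 270,000 cells, against at most 0.348% in the places. At 20 to 49 tags the rest had a single position in 34.7% of peaks in lung and in at most 1.39% in the other libraries, and the places in none. At these counts the median standard deviation was 4.90 to 5.05 bp in the places in all 7 libraries and 1.78 bp in lung and 4.50 to 5.10 bp in the other 6 in the rest, where the library of 27,000 cells had only 2 such peaks.

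**Figure D5:**
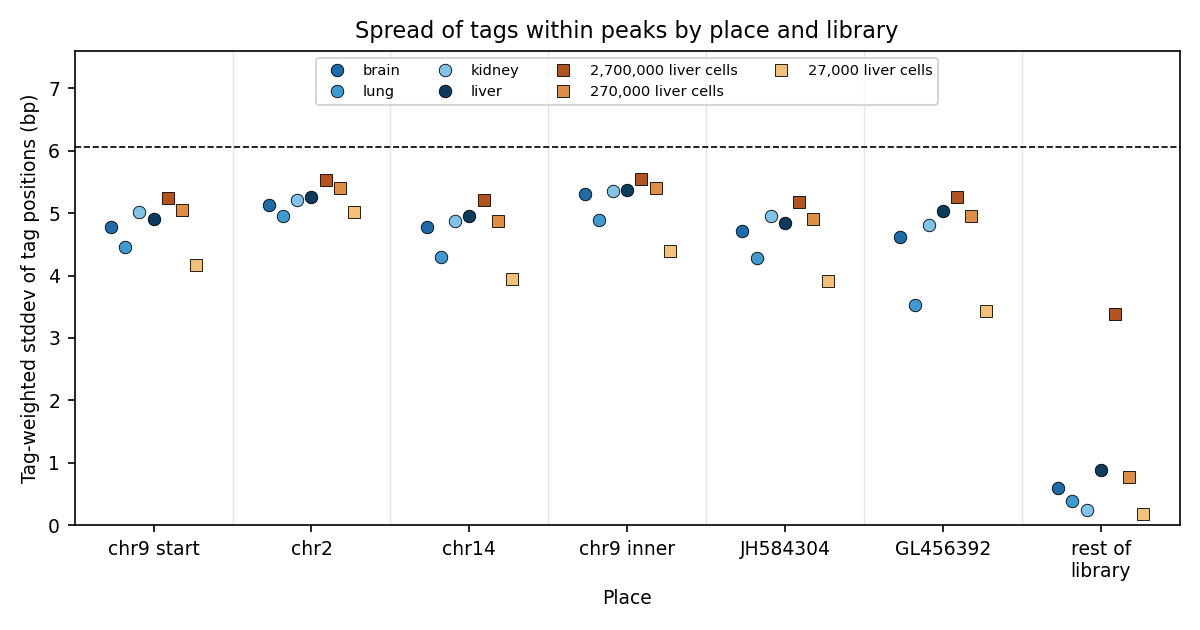
Tag-weighted standard deviation of tag positions within peaks (bp) in each place and in the rest of each library, 1 point a library. The dashed line marks 6.06 bp, the value of an even spread over 21 positions. Every place lies between 3.42 and 5.55 bp and the rest of the libraries at 3.39 bp or less.

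Among the places, tags were most spread at chr2 and chr9 inner. For this measure 9 of 15 pairs passed the exact permutation test, each in the same direction in 7 of 7 libraries and each with adjusted p = 0.0469. The difference of chr9 start minus chr2 was −0.412 ± 0.214 bp (SD, n = 7). Chr2 exceeded chr14 by 0.509 ± 0.285 bp, JH584304 by 0.530 ± 0.290 bp and GL456392 by 0.697 ± 0.569 bp. The difference from chr9 inner was −0.380 ± 0.105 bp for chr9 start and −0.477 ± 0.0820 bp for chr14. Chr9 inner exceeded JH584304 by 0.499 ± 0.0887 bp and GL456392 by 0.665 ± 0.387 bp. Chr9 start exceeded JH584304 by 0.118 ± 0.0784 bp, and chr2 and chr9 inner differed by 0.0318 ± 0.277 bp, which did not pass (adjusted p = 0.922, exact permutation test).

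These differences went with the number of tags a peak holds. The median peak held 15 to 497 tags at chr2 and 10 to 175 at chr9 inner, against 4 to 54 at chr9 start, 4 to 89 at chr14, 3 to 28 at JH584304 and 3 to 43 at GL456392. Among peaks of 20 to 49 tags, the median over libraries was 5.05 bp at chr2, 5.01 bp at chr9 start, 5.03 bp at JH584304, 5.07 bp at GL456392 and 4.86 bp at chr14, over the 5 to 7 libraries with at least 10 such peaks. Chr9 inner had at most 9 such peaks in any library and was not compared. With only peaks of at least 5 tags, or with each peak counted once, none of the 15 pairs passed (lowest adjusted p = 0.0586 by the exact permutation test), although all 9 differences kept their sign. None passed when any 1 library was left out either, with a lowest adjusted p of 0.0852 in the exact permutation test.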

How the data were processed

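CTCF ChIP-exo 5.0 was measured in 7 mouse libraries, 1 per condition. The authors sequenced paired reads of 40 bp and aligned them. Their methods state that non-unique alignments and PCR duplicates were removed, but name the yeast and human genomes only, so whether the filter on unique alignments was applied to these mouse libraries is not stated there. The submitters' processing notes name BWA 0.7.9a, bcl2fastq 2.16 and mm10. The authors deposited lists of peaks with raw counts of tags, not normalized, and the standard deviation of tag positions in bp. The peak lists hold no peak below 2 tags.

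Peaks were assigned to places by their centres, and tags were summed per place, strand and library. The members, lists and tests were chosen with earlier results of these data known. All 6 places, the 2 positions with the highest mean tag share in each, the 1 kb block with most tags in each, and overlapping or nearest genes were named. With 1 library per condition, tests between places treat each library as 1 unit, so that p measures only how steadily a difference ran over these 7 libraries. Exact sign-flip permutation tests were adjusted by the Benjamini-Hochberg method over 30 tests. Intervals are 95% Wilson intervals. Minimum tag counts, weights, windows and single libraries were varied as alternatives. The scripts were tested on simulated data. Computation ran under Python 3.11.15 with scipy 1.17.1 for the tests, pandas 2.3.3 and numpy 2.4.6 for the sums, and figures were drawn with matplotlib 3.10.9.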

Additional observations from a re-analysis of the deposited data

Results flagged for a closer look

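By tags, at 3 places the forward share of every organ library lay on 1 side of an even split of strands and that of every titration library on the other. Not every Wilson interval excluded an even split. The interval was 49.5% to 52.7% at JH584304 in 27,000 liver cells. At chr9 inner it was 49.7% to 53.0% in kidney and 40.9% to 52.8% in 27,000 liver cells. The mean forward share of the titration minus that of the organs was 12.1 percentage points at chr9 start, 9.66 at JH584304 and −9.37 at chr9 inner. With peaks counted in place of tags these became 1.98, 3.01 and 0.146, with overlap at chr9 inner. With 4 against 3 libraries the exact permutation test cannot pass 0.05, so the difference has not been shown by a test. Cell input and library preparation cannot be told apart in it, and both sets include liver.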

How the results depend on the processing

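The median share of tags in the 6 places, 10.8%, was 24.9% with peaks of at least 5 tags only, 53.0% without peaks of 1 position, 2.43% of peaks when peaks were counted, 10.9% without the mitochondrial genome and other unplaced sequences, and 34.4% when thinning every library to the smallest was computed. Both the places and the total lose peaks in the first 2, and the rest of the libraries loses more of them. Widening the windows by 10 kb left it at 10.8%. For the forward share, 0 of 15 pairs passed with peaks counted (chr14 minus chr9 inner, adjusted p = 0.402, exact permutation test) and 0 without the library of 27,000 liver cells (adjusted p = 0.0852), and this difference reversed to −6.41 percentage points without the strongest position. For the standard deviation, 0 of 15 pairs passed with peaks of at least 5 tags, with the unweighted mean (adjusted p up to 0.156 for the 9 pairs) and without the library of 27,000 liver cells. Leaving out any other library also left 0 pairs of either measure, since the smallest exact permutation p with 6 libraries is 0.0312. At an unadjusted 0.05, 9 or 10 pairs for the standard deviation and 1 or 2 for the forward share then passed. The median distance with most same-strand pairs at chr9 start, 409 bp, became 234 bp with peaks weighted by the square root of tags, 469 bp with distances to 1000 bp, 428 bp on the forward strand, 177 bp on the reverse strand and 233 bp with at least 5 tags. At chr14 it moved from 143 bp to 118, 190, 189, 209 and 232 bp in the same order. At JH584304 it moved from 236 bp to 341, 468 and 466 bp under the first 3 of these, at GL456392 from 188 bp to 271, 117 and 266 bp with square root weights, on the reverse strand and with at least 5 tags, and at chr9 inner from 133 bp to 115 bp on the reverse strand. The cause was not tested. At chr2 it stayed between 119 and 125 bp. The share of positions common to 2 libraries rose from 6.59% to 49.7% within 5 bp and to 7.51% with at least 5 tags. No paired analysis was possible between conditions because the labels give no replicate numbers and each condition has 1 library. Pairing by library was used only between places. The forward share of the titration minus that of the organs turned to 0.593 percentage points at chr14 and 0.146 at chr9 inner with peaks counted, an alternative chosen after seeing the data. Peaks below 2 tags are not listed, which limits the library of 27,000 cells with its 35594 tags.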
